A study of Mus musculus with 6 samples.

Results

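The 10 genes described here are the D cyclins Ccnd1, Ccnd2 and Ccnd3, the G1 kinases Cdk4 and Cdk6, the CDK inhibitors Cdkn1a, Cdkn1b, Cdkn2c and Cdkn2d, and the retinoblastoma gene Rb1. They were taken by name, and each matched 1 of the 55416 Ensembl genes in the deposited count tables. RNA was sequenced from CD3+ T cell fractions of the spleens of wild-type C57BL/6 mice that had received a graft, in 3 libraries from isograft recipients (genetically identical donor) and 3 from allograft recipients (genetically different donor). The purified cells then stood in serum-supplemented medium, and the labels' protocols do not give the length of that culture. The grafted organ, the donor strain and the time after grafting are likewise not given in the sources used. Nothing in the labels ties each library to its own mouse, so the p-values rest on library-to-library spread that may be technical.

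D cyclins are the growth-signal sensors of the cell cycle: antigen receptor and cytokine signals raise them, and they bind CDK4 or CDK6 to form the kinase that begins to phosphorylate RB. Phosphorylated RB releases E2F transcription factors, which switch on genes for DNA synthesis. INK4 inhibitors (Cdkn2c and Cdkn2d here) bind CDK4 and CDK6 themselves. CIP/KIP inhibitors (here Cdkn1a, encoding p21, and Cdkn1b, encoding p27) instead bind cyclin-CDK complexes and block CDK2 most strongly. Resting T cells are known for high p27.

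The D cyclins and the CDK inhibitors each held genes that rose and genes that fell, while both kinase genes rose. Ccnd2, both kinase genes and Cdkn1a were higher in allograft libraries, and Ccnd3, Cdkn1b, Cdkn2c, Cdkn2d and Rb1 were lower. Of the 10 genes, all of which passed the low-count filter, 4 rose, 5 fell and 1, Ccnd1, was not called by edgeR's quasi-likelihood test at an adjusted p of 0.05. The background was wide, since 28.7% of the 14926 genes tested rose and 29.1% fell. At least 2-fold changes were called for 6 of the 10 genes, against 20.1% of all genes tested. The median absolute log2 fold change was 1.25 over the 10 genes and 0.50 over all genes tested. The 10 genes were chosen with earlier results of these data known, so these comparisons are no test of them as a set.

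Start-site windows were read for 7 of the 10 genes from RefSeq's table on GRCm38.p6 (250 bases before to 50 after each start, 10 windows in all), a different build from the files' GRCm39. No window was available for Ccnd1, Ccnd2 or Rb1, so these genes were not searched for motifs. The windows of both kinase genes, which rose, and of Ccnd3 and Cdkn1b, which fell, are shown so that the sequences of genes moving in opposite directions can be set side by side. Each runs 5′ to 3′ on the strand of the gene, here the plus strand throughout. Capitals mark matches to any motif searched except the CCAAT and GC boxes. The only such motifs found were the MYC-type E-box CACGTG and the FOXO motif GTAAACA.
Cdk4, chr10:127063285-127063584: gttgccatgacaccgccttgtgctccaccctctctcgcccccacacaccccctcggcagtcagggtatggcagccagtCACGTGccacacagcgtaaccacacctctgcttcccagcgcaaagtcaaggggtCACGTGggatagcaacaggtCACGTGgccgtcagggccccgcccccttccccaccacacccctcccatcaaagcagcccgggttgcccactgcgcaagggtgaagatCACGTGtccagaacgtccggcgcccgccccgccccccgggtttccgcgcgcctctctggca
Cdk6, chr5:3343643-3343942: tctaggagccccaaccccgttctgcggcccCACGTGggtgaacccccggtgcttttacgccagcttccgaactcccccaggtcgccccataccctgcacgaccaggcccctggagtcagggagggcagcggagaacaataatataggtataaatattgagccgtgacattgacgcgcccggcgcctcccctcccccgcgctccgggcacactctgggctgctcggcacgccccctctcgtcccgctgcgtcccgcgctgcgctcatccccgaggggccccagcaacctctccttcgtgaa
Ccnd3, upstream start, chr17:47504801-47505100: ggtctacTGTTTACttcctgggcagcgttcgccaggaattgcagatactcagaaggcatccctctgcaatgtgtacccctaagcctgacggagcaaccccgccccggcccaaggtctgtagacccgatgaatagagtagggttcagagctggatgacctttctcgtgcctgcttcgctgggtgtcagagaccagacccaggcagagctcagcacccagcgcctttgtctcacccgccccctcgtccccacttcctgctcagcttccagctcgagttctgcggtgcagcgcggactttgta
Ccnd3, downstream start, chr17:47593217-47593516: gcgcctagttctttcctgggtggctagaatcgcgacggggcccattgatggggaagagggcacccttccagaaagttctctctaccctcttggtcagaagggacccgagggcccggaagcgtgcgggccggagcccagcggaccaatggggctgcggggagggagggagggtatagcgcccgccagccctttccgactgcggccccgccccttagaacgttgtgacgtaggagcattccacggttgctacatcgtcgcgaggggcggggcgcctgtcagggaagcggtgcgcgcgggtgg
Cdkn1b, chr6:134920151-134920450: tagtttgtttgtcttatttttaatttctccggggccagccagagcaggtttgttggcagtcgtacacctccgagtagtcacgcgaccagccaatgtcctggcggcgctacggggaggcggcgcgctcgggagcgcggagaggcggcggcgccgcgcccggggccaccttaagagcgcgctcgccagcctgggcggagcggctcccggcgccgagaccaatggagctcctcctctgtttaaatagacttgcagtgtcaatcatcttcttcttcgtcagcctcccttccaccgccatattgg

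The Cdk4 window held the E-box 4 times, beginning at -172, -118, -98 and -11 from the start site, and the Cdk6 window held it once, at -220. The E-box was not confined to genes that rose: 1 of the 2 windows of Cdkn2c, which fell, held it once, beginning 35 bases after the start site, and neither window of Cdkn1a, which rose, held it. An E-box was present in 7.15% of the 32851 windows in the table, and at least 4 of them in 0.0244%, which is 8 windows. The upstream Ccnd3 window held the FOXO motif on its minus strand (as TGTTTAC, from -243), a motif found in 3.65% of windows. The downstream Ccnd3 window and the Cdkn1b window held neither. Both strands were also searched for the E2F motifs TTTGGCGC (0.514% of windows) and TTTCGCGC (0.323%), the cyclic AMP element TGACGTCA (1.79%), the AP-1 motif TGANTCA (7.81%) and the STAT motif TTCNNNGAA (8.3%), and none of these was found in the 10 windows. The CCAAT box (CCAAT, in 37.4% of windows) and the GC box (GGGCGG, in 35.7%) were searched as well and are not capitalised. The CACGTG and TGACGTCA motifs read the same on both strands, and a match is only a run of letters.

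Ccnd2 (ENSMUSG00000000184, chromosome 6, 127102125 to 127129156, GRCm39) encodes cyclin D2, the D cyclin that mitogens induce in lymphocytes. Its level in CPM (counts scaled to library size, with TMM factors) was 88.6, 85.9 and 102.6 CPM in isograft replicates 1, 2 and 3 and 755.9, 786.9 and 712.8 CPM in allograft replicates 1, 2 and 3. All 3 allograft libraries lay far above all 3 isograft libraries. The group means were 92.4 ± 8.95 and 751.9 ± 37.2 CPM (SD, n = 3), an 8.14-fold difference. The log2 fold change, allograft minus isograft, was 3.03 ± 0.08 (SE; edgeR adjusted p = 6.37e-16). This was the 93rd highest of 14926 log2 fold changes. Raw counts behind the levels were 2932 to 3482 per isograft library and 20050 to 23595 per allograft library, and the genes that share 740 of its 9409 exon bases had at most 14 counts.

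Ccnd3 (ENSMUSG00000034165, chromosome 17, 47815976 to 47910616) encodes cyclin D3, which lymphocytes use in development and proliferation. It stood at 41.0, 39.9 and 39.4 CPM in isograft replicates 1 to 3 and at 16.2, 14.8 and 16.1 CPM in allograft replicates 1 to 3. The groups did not overlap, and each was tight: 40.1 ± 0.839 against 15.7 ± 0.759 CPM (SD, n = 3). Ccnd3 thus fell by 1.35 on the log2 scale (SE 0.09; edgeR adjusted p = 1.44e-10), in the opposite direction to Ccnd2. Ccnd3 shares 361 of its 8775 exon bases with Bysl on the other strand. Fragments there are left out by the counting tool's defaults, and Bysl rose from 783 to 1234 counts per isograft library to 3455 to 5939 per allograft library. The part of this overlap in the Ccnd3 fall was not tested.

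Ccnd1 (ENSMUSG00000070348, chromosome 7, 144483668 to 144493662) encodes cyclin D1, the D cyclin of many non-lymphoid cells, and was barely detected. Its counts were 11, 49 and 29 in isograft and 20, 16 and 22 in allograft replicates 1 to 3, or 0.333 to 1.21 and 0.552 to 0.782 CPM. The isograft libraries spanned the whole allograft range. The log2 fold change was -0.32 ± 0.46 (SE; edgeR adjusted p = 0.576), with a 95% interval of -1.29 to 0.65, which still includes a 2-fold fall. Of its exon bases 1100 of 4709 (23.4%) are shared with LTO1, which had 1838 to 2856 counts per library.

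**Figure D1:**
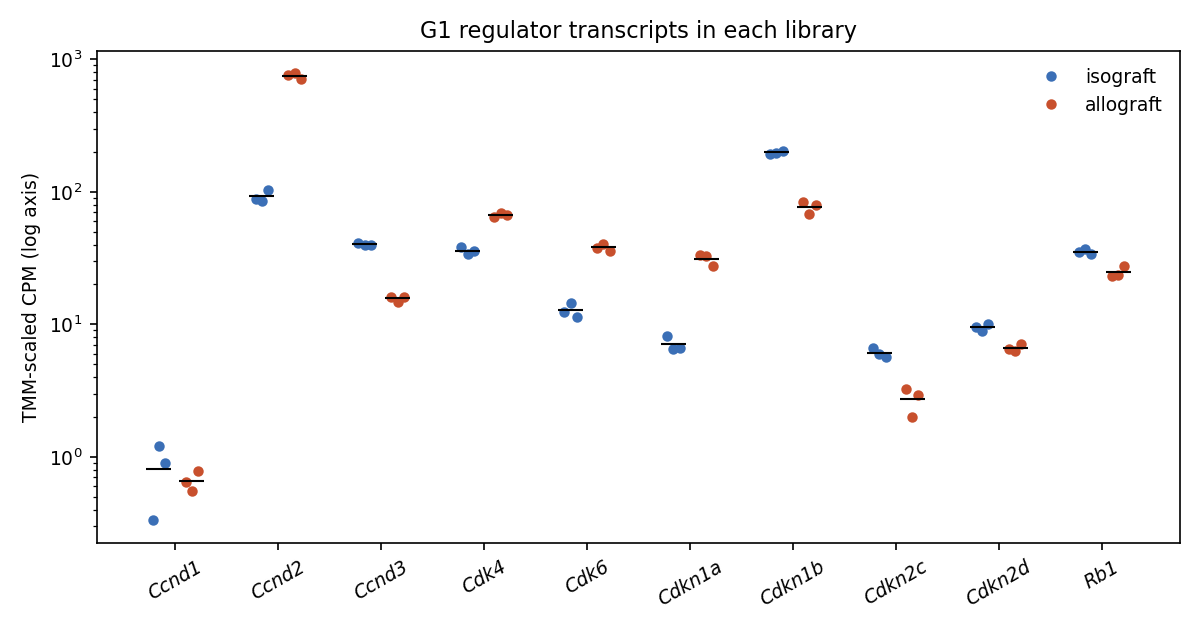
TMM-scaled CPM of the 10 genes (log axis) in each of the 3 isograft (blue) and 3 allograft (red) libraries, with points for libraries and black bars for group means. The groups are separate for all genes but Ccnd1, whose isograft libraries run from 0.333 to 1.21 CPM around the allograft ones.

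Because D cyclins compete for the same kinases, their make-up was compared per length, as CPM divided by the gene's exon length in kb. Summed D cyclin transcripts were 14.2, 13.9 and 15.6 CPM per kb in isograft replicates 1 to 3 and 82.3, 85.4 and 77.8 CPM per kb in allograft replicates 1 to 3, a 5.62-fold difference of means. Ccnd2 made up 67.3 ± 2.34% of that sum in isograft and 97.6 ± 0.232% in allograft libraries (SD, n = 3). The share of Ccnd3 went from 31.5 ± 2.33% to 2.19 ± 0.196%. The ratio of Ccnd2 to Ccnd3 was 2.15 ± 0.242 in isograft and 44.8 ± 4.24 in allograft libraries. For each of these quantities the groups did not overlap, and a two-sided exact permutation test over the libraries gave p = 0.10, the smallest that 3 against 3 libraries allow. The exon length in the files joins the exons of all transcripts, so genes with long, rarely used exons get low per-length levels.

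**Figure D2:**
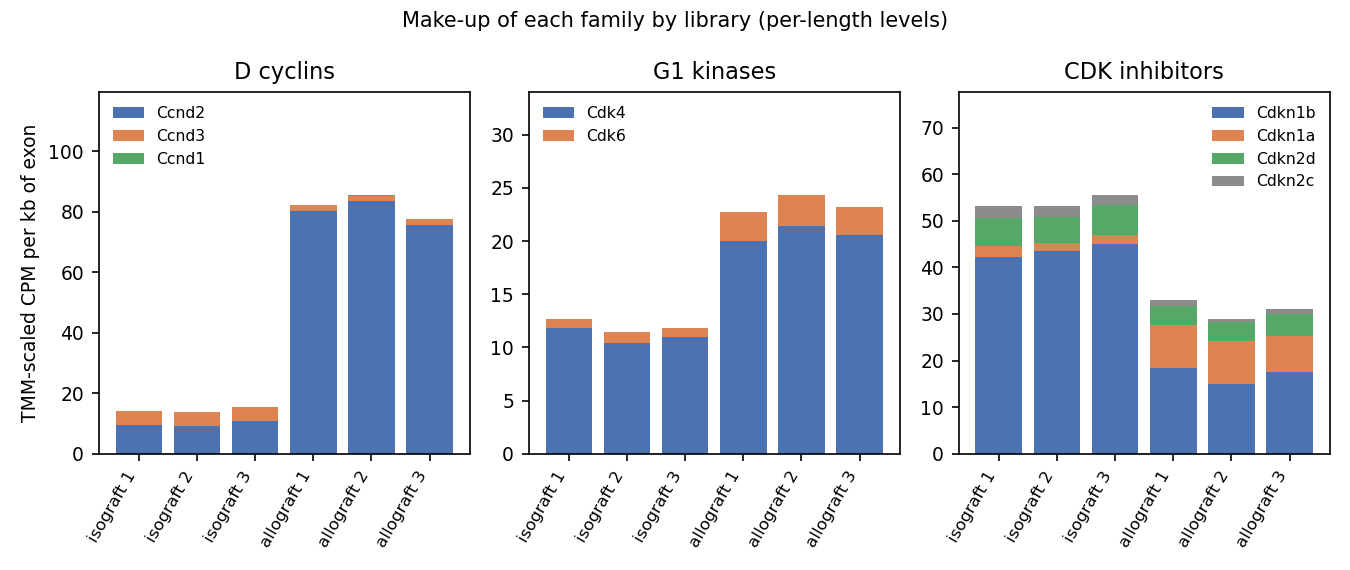
Stacked per-length levels (TMM-scaled CPM per kb of exon) of the D cyclins, the G1 kinases and the CDK inhibitors in each library. Ccnd2 fills almost the whole D cyclin bar in allograft libraries (97.6%), and Cdkn1a makes up a larger part of the shorter inhibitor bar.

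Both kinase genes rose, by different amounts. Cdk4 (ENSMUSG00000006728, chromosome 10, 126899403 to 126903789) was at 38.3, 33.9 and 35.8 CPM in isograft and 65.1, 69.6 and 66.9 CPM in allograft replicates 1 to 3. The 2 groups did not overlap, and the log2 fold change was 0.90 ± 0.08 (SE; edgeR adjusted p = 7.13e-09). Cdk6 (ENSMUSG00000040274, chromosome 5, 3391485 to 3581008) was at 12.4, 14.5 and 11.4 CPM in isograft and 37.9, 40.3 and 35.9 CPM in allograft replicates 1 to 3. Its log2 fold change was 1.57 ± 0.10 (SE; edgeR adjusted p = 1.4e-10), again with no overlap. Per length, Cdk4 was the main kinase transcript in every library. Cdk6 made up 7.63 ± 1.22% of the pair in isograft and 11.6 ± 0.459% in allograft libraries (SD, n = 3; exact permutation p = 0.10, the smallest possible). That difference of 3.99 percentage points was 9.97 without division by exon length. Tspan31 on the other strand shares 641 of the 3249 exon bases of Cdk4 (19.7%), and had 241 to 291 counts in isograft and 173 to 196 in allograft libraries.

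The CIP/KIP inhibitors moved apart. Cdkn1b (ENSMUSG00000003031, chromosome 6, 134897364 to 134902476), whose product p27 restrains CDK2 in resting lymphocytes, stood at 192.5, 197.6 and 205 CPM in isograft and at 83.5, 68.4 and 80.2 CPM in allograft replicates 1 to 3. Every allograft library was below every isograft library, and Cdkn1b fell by 1.36 on the log2 scale (SE 0.08; edgeR adjusted p = 2.06e-11). It shares no exon bases with another gene. Cdkn1a (ENSMUSG00000023067, chromosome 17, 29309950 to 29319701), whose product p21 is induced by p53 and by mitogens, was at 8.22, 6.54 and 6.67 CPM in isograft and 33.2, 32.7 and 27.6 CPM in allograft replicates 1 to 3. The 4.36-fold rise was a log2 fold change of 2.13 ± 0.12 (SE; edgeR adjusted p = 1.21e-11), the 296th highest of all genes tested.

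The rise of Cdkn1a did not make up for the fall of Cdkn1b in summed transcripts. Per length, the pair summed to 45.6 ± 1.18 CPM per kb in isograft and 25.8 ± 1.77 in allograft libraries (SD, n = 3). Cdkn1a made up 4.42 ± 0.667% of the pair in isograft and 34.1 ± 3.71% in allograft libraries. The ratio of summed D cyclins to Cdkn1b was 0.335, 0.321 and 0.346 in isograft and 4.49, 5.69 and 4.41 in allograft replicates 1 to 3, a difference of means of 4.53, or 9.36 without division by exon length. The exact permutation p was 0.10 for each, the smallest possible.

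Both INK4 genes among the 10 fell. Cdkn2c (ENSMUSG00000028551, chromosome 4, 109518073 to 109524386), encoding p18, was at 6.65, 5.94 and 5.64 CPM in isograft and 3.27, 2.0 and 2.95 CPM in allograft replicates 1 to 3. It fell by 1.15 on the log2 scale (SE 0.20; edgeR adjusted p = 4.81e-05) on 181 to 241 isograft and 58 to 102 allograft counts. Cdkn2d (ENSMUSG00000096472, chromosome 9, 21199706 to 21202703), encoding p19 of the INK4 family, was at 9.49, 8.90 and 10.1 CPM in isograft and 6.47, 6.31 and 7.11 CPM in allograft replicates 1 to 3. Its fall was smaller, 0.52 on the log2 scale with an SE of 0.13 (edgeR adjusted p = 0.00255). Neither pair of groups overlapped. Summed per length, the 2 INK4 transcripts went from 8.31 ± 0.378 to 5.23 ± 0.439 CPM per kb. The ratio of Cdk4 plus Cdk6 to this sum went from 1.45 ± 0.0532 to 4.50 ± 0.532 (SD, n = 3; exact permutation p = 0.10, the smallest possible). This difference of 3.06 was 8.21 without division by exon length.

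Rb1 (ENSMUSG00000022105, chromosome 14, 73421113 to 73563262), the substrate that holds E2F factors back, was at 35.3, 37.3 and 33.7 CPM in isograft and 23.0, 23.5 and 27.4 CPM in allograft replicates 1 to 3. It fell by 0.52 on the log2 scale (SE 0.09; edgeR adjusted p = 7.93e-05), with no overlap of the groups. Rb1 shares 896 of its 6015 exon bases with genes on the other strand, Rcbtb2 and Lpar6. Both of those had fewer counts in allograft libraries as well, 130 to 148 against 257 to 364 for Rcbtb2 and 63 to 91 against 172 to 229 for Lpar6. Across the 10 genes the groups did not overlap for 9, where 63.3% of all genes tested had no overlap.

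**Figure D3:**
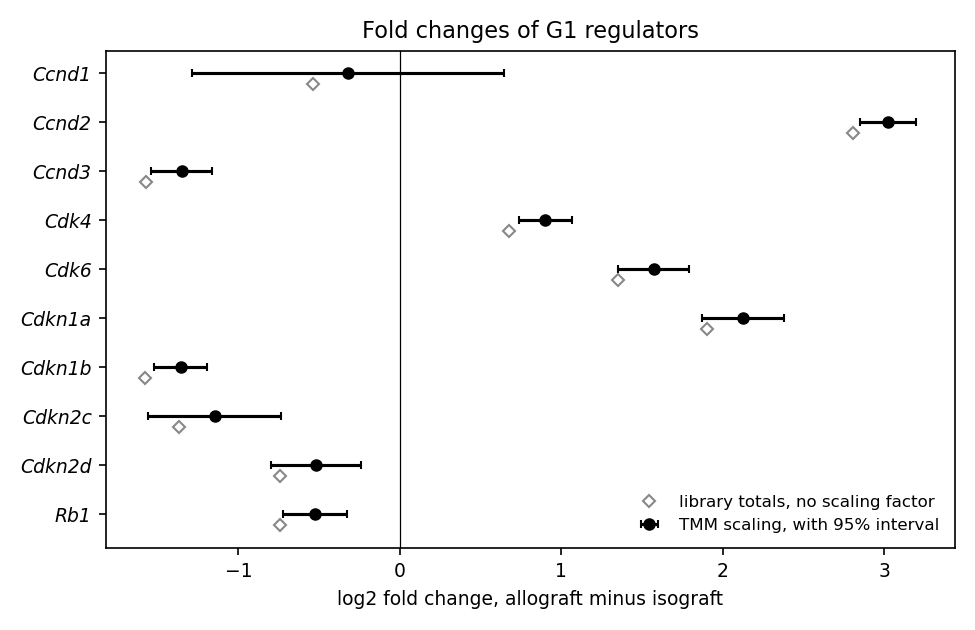
Log2 fold changes (allograft minus isograft) of the 10 genes with 95% intervals from edgeR (black), and the same with library totals in place of TMM (open diamonds). The 9 called genes lie on the same side of 0 under both scalings, and the interval of Ccnd1 runs from -1.29 to 0.65.

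The order of per-length levels changed between the groups. In isograft libraries Cdkn1b led with 43.6 ± 1.37 CPM per kb (SD, n = 3), followed by Cdk4 at 11.1 and Ccnd2 at 9.82, whose ranges overlapped. Cdkn2d (6.04) and Rb1 (5.89) also overlapped each other, then came Ccnd3 (4.57), Cdkn2c (2.26) and Cdkn1a (2.01), the last 2 overlapping, Cdk6 (0.912) and Ccnd1 (0.173). In allograft libraries Ccnd2 led with 79.9 ± 3.96 CPM per kb, ahead of Cdk4 (20.7), Cdkn1b (17.0) and Cdkn1a (8.77). Cdkn2d (4.21) and Rb1 (4.09) overlapped again, and Cdk6 (2.72), Ccnd3 (1.79), Cdkn2c (1.02) and Ccnd1 (0.140) followed without overlap. The order below the leading gene depended on the division by exon length. In CPM, Cdkn1b (198.4) still led in isograft and Ccnd2 (751.9) in allograft libraries. However, Ccnd3 (40.1) was then above Cdk4 (36.0) in isograft, and Cdkn1b (77.3) above Cdk4 (67.2) in allograft libraries.

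Within the allograft group, replicate 2 stood at the far end for most of these genes. It had the highest level of its group for 3 of the 4 genes that rose (Ccnd2, Cdk4 and Cdk6) and the lowest for 4 of the 5 that fell (Ccnd3, Cdkn1b, Cdkn2c and Cdkn2d). This place was not particular to these genes. Across all genes tested, the log2 CPM of allograft replicate 2 correlated least with each isograft library. Its correlations were 0.9457 to 0.9468, against 0.9486 to 0.9519 for the other allograft libraries. The spread was small beside the difference between groups: Cdkn2c, the called gene with the widest allograft spread relative to its mean, ran from 2.0 to 3.27 CPM against 5.64 to 6.65 CPM in isograft libraries. Without allograft replicate 2 Cdkn2c fell by 0.97 on the log2 scale (edgeR adjusted p = 0.000523), within a range of -1.37 to -0.97 over 15 alternatives.

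The CD3+ label was checked against marker genes, because D cyclins and CDK inhibitors are made by all lymphocytes. All 15 T cell markers were detected and summed to 2166 to 2245 CPM in isograft and 1839 to 1979 CPM in allograft libraries, with 4 that rose and 7 that fell. All 15 B cell markers were also detected and summed to nearly as much, 2017 to 2150 CPM in isograft and 1797 to 1912 CPM in allograft libraries, with 3 that rose and 7 that fell. Over all genes tested, 28.7% rose and 29.1% fell. Macrophage and monocyte markers summed to 117.4 to 123.3 and 94.2 to 109.3 CPM. Neutrophil markers summed to at most 10.2 CPM and erythroid ones to at most 1.62 CPM in any library. Stromal and endothelial markers summed to 263 to 268.6 and 128.8 to 143.1 CPM, nearly all of it Pecam1 and Kdr, while each collagen gene stayed at 0.363 CPM or less. The part of these cell types in the changes of the G1 genes was not tested, and in such bulk samples fewer cells of a type and less RNA per cell cannot be told apart. Library totals were 30066137 to 37821738 counts.

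The partners of these genes at the G1/S boundary were read from a list of 26 genes, of which 25 passed the filter. Of the 25, 12 rose and 6 fell, where 28.7% of all genes tested rose and 29.1% fell. Their median log2 fold change was 0.22, against -0.01 for all genes tested. The pocket protein gene Rbl2 (p130), which holds E2F4 in resting cells, was the partner with the smallest p: it went from 55.1, 61.6 and 57.4 to 19.2, 17.9 and 22.7 CPM in replicates 1 to 3, a fall of 1.54 on the log2 scale (SE 0.10; edgeR adjusted p = 5.15e-11). The E2F dimer partners split, Tfdp1 rising by 1.06 ± 0.08 and Tfdp2 falling by 1.54 on the log2 scale (edgeR adjusted p = 7.03e-10 and 7.86e-09). With library totals in place of TMM, 7 of the 25 rose and 9 fell. Under that scaling 2973 of all 14926 genes tested rose and 6093 fell.

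Other partners are named for their place in the pathway, after their values were seen. The third pocket protein gene, Rbl1 (p107), fell by 0.72 on the log2 scale, so all 3 pocket protein transcripts were lower. The cyclin E genes split. Ccne1 went from 14.0 ± 1.09 to 9.08 ± 0.488 CPM and Cdk2 from 41.5 ± 1.22 to 32.9 ± 2.95 CPM (SD, n = 3), falls of 0.63 and 0.33 on the log2 scale (edgeR adjusted p = 0.000149 and 0.00289). Ccne2 rose from 5.35 ± 0.831 to 7.41 ± 0.612 CPM (log2 fold change 0.47, edgeR adjusted p = 0.0156), a call lost with library totals (0.25, adjusted p = 0.187) and also when isograft replicate 1 (0.37, adjusted p = 0.0774) or allograft replicate 3 (0.41, adjusted p = 0.0533) was left out. Among E2F genes, E2f3, E2f4, E2f5 and E2f6 rose by 0.50 to 0.85 on the log2 scale. E2f1 differed by -0.25, E2f2 by -0.11, E2f7 by -0.52 and E2f8 by -0.57, none of them called (edgeR adjusted p = 0.249, 0.549, 0.161 and 0.0894). With library totals E2f1 (-0.47), E2f7 (-0.74) and E2f8 (-0.79) were called lower (adjusted p = 0.0295, 0.0441 and 0.0143), and E2f8 was also called lower without isograft replicate 1 (-0.84, adjusted p = 0.00623) and with no low-count filter (-0.59, adjusted p = 0.0183). The third CIP/KIP gene, Cdkn1c, fell from 1.37 to 0.644 CPM (log2 fold change -1.08, edgeR adjusted p = 0.0275). Of the other INK4 genes, Cdkn2b was at 0.529 and 0.513 CPM (log2 fold change -0.02, edgeR adjusted p = 0.98) and Cdkn2a did not pass the filter.

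Of 20 targets of E2F that serve DNA synthesis and the cell cycle, 5 rose (Tk1, Pcna, Ung, Mcm5 and Mcm3), 2 fell (Mcm7 and Rrm2) and 13 were not called, against a background of 28.7% that rose and 29.1% that fell. The median was 0.06 on the log2 scale. Mcm5, Mcm3, Mcm7, Rrm2, Ccna2 and Cdk1 are named after their values were seen. Tk1, a thymidine salvage kinase, rose from 20.997 ± 0.838 to 68.4 ± 4.86 CPM (log2 fold change 1.70 ± 0.08), and Ung, a uracil glycosylase of DNA repair, from 8.30 ± 0.676 to 19.1 ± 1.06 CPM (1.20 ± 0.11). Pcna, the polymerase clamp, rose by 0.77 ± 0.07. The Mcm3 rise of 0.23 was lost with library totals (0.01, edgeR adjusted p = 0.912). The Rrm2 fall of 0.36 was lost with the replicate number as a block (edgeR adjusted p = 0.0504). Of genes that mark cells in S phase or beyond, Ccna2 was at 8.31 ± 0.634 and 6.81 ± 0.752 CPM (edgeR adjusted p = 0.0931) and Cdk1 at 4.73 ± 0.709 and 5.42 ± 0.693 CPM (adjusted p = 0.339). The Ccna2 groups did not overlap. With library totals Ccna2 was called lower (-0.51, edgeR adjusted p = 0.00452) and Cdk1 was not called (-0.02, adjusted p = 0.926). The count of falls depended on the scaling: with library totals 4 rose and 9 fell. Under that scaling 2973 of all 14926 genes tested rose and 6093 fell. The count of E2F targets that fell was 1 without isograft replicate 2 or isograft replicate 3, and 4 without allograft replicate 1.

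Since p53 induces Cdkn1a, 18 other p53 target genes were read, and 17 passed the filter. Of these 7 rose and 4 fell, so that 11 of 17 were called where 57.8% of all genes tested were. The median was 0.33 on the log2 scale, and the 3 with the smallest p went both ways. The nuclease gene Aen rose by 1.97 ± 0.08 and the stress sensor gene Sesn2 by 2.22 ± 0.13, whereas Sesn1 fell by 1.67 on the log2 scale (SE 0.09; edgeR adjusted p = 5.52e-14, 1.27e-11 and 9.05e-12). Mdm2, the p53 antagonist and a standard target, was at 157.9 ± 8.02 and 176.3 ± 10.8 CPM (log2 fold change 0.16, edgeR adjusted p = 0.0681). The Mdm2 groups did not overlap, and its sign reversed with library totals (-0.06, edgeR adjusted p = 0.485). Mdm2 is named after its values were seen. With library totals 4 of the 17 rose and 6 fell, where 2973 of all 14926 genes tested rose and 6093 fell.

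Of 16 regulators of D cyclin and p27 levels, 5 rose and 7 fell, with 28.7% and 29.1% of all genes tested as the background. The median was -0.16 on the log2 scale. Myc, which is known to drive Cdk4 and Ccnd2 transcription, rose from 41.5, 46.7 and 46.2 to 457.9, 421.4 and 352.8 CPM in replicates 1 to 3 (log2 fold change 3.20 ± 0.09; edgeR adjusted p = 5.45e-15). The kinase gene Pim3 rose by 1.82 ± 0.10. Klf2, a factor of T cell quiescence, fell by 1.67 on the log2 scale (SE 0.10). The FOXO genes, whose products are known to activate Cdkn1b and Rbl2, are named after their values were seen: Foxo1 fell by 0.81 and Foxo3 by 0.87 on the log2 scale (edgeR adjusted p = 2.14e-07 and 1.12e-07). With library totals 4 of the 16 rose and 11 fell, where 2973 of all 14926 genes tested rose and 6093 fell.

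**Figure D4:**
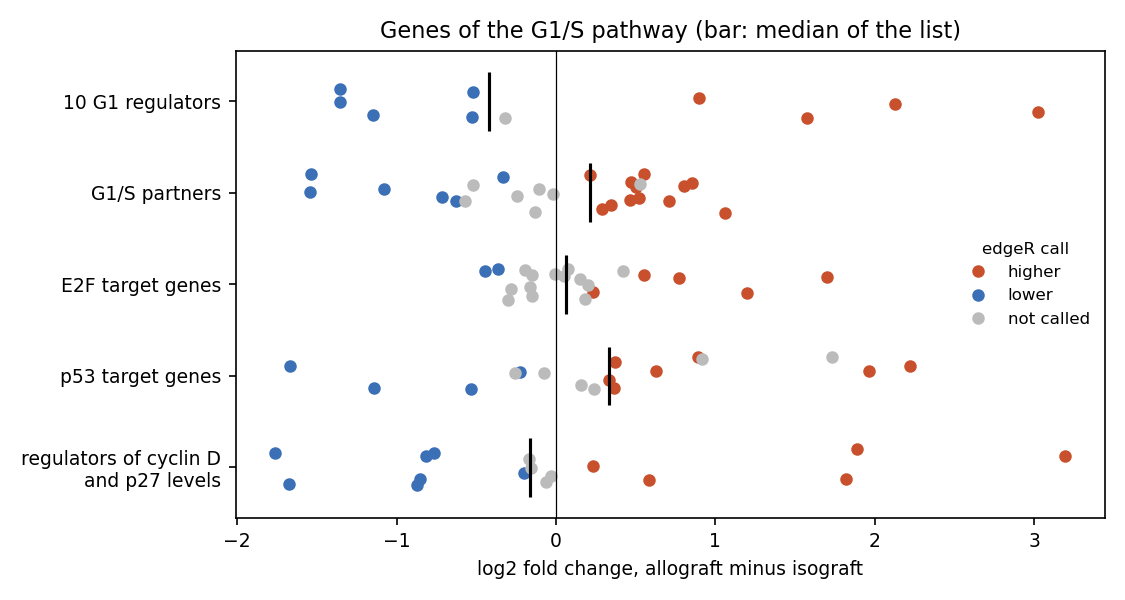
Log2 fold changes (allograft minus isograft) of the 10 G1 regulators and of the genes past the filter in 4 pathway lists, coloured by edgeR call, with bars at the medians. The 10 G1 regulators spread from -1.36 to 3.03, while most of the 20 E2F target genes lie near 0 (median 0.06).

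The genes whose profiles lay closest to those of 3 members were found among 8743 genes of at least 5 CPM, by the root mean square difference of log2 CPM over the 6 libraries after each gene was centred on its isograft mean. For Ccnd2 they were Bcat1 (0.07 log2 units), Nr4a3 (0.10) and Rrp1b (0.14). For Ccnd3 they were Evl (0.03), Pitpnm1 (0.04) and Cd247 (0.05), the last a subunit of the T cell receptor complex. For Cdkn1b they were Narf (0.03), Ets1 (0.04) and Evl (0.05). With only 2 groups this measure is set mostly by the size of the difference between them.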

How the data were processed

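RNA levels were measured in 3 isograft and 3 allograft libraries. The authors ran featureCounts 1.6.0 in its paired mode on HISAT alignments, per the file headers, with exons of the Ensembl 104 annotation of GRCm39 summed per gene. The deposited values are whole-number counts with no normalization. The headers record no strand or multi-mapping option. GRCm38 and mm10 are the builds in the submitters' processing notes, and gene coordinates are printed from the files. Symbols matched 52083 of 55416 genes by Ensembl ID.

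Genes were kept by filterByExpr, which left 14926 genes with 99.92% of the counts. edgeR 4.0.16 (R 4.3.3) fitted allograft against isograft over all these genes, with TMM scaling, robust quasi-likelihood tests and Benjamini-Hochberg adjustment at 0.05. The SE is the absolute log2 fold change over the square root of F. The procedure was tested on simulated data in which few genes changed. That test does not bear on the scaling here, where 57.8% of genes tested were called. Library totals of 30066137 to 37821738 counts set the precision, and chi-square per degree of freedom within groups was 10.3 to 21.9, above sampling noise. Alternatives used RLE scaling, library totals, DESeq2 1.42.0, limma-voom (limma 3.58.1), non-robust estimation, other filters, a replicate block, each library left out, and 199 immunoglobulin, hemoglobin and mitochondrial genes left out.

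All 10 genes are named whatever their result, with the 3 members of smallest p of each pathway list and the 3 closest profiles for Ccnd2, Ccnd3 and Cdkn1b. The genes and lists were chosen with earlier results of these data known.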

Additional observations from a re-analysis of the deposited data

How the results depend on the processing

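The 9 called genes kept their direction and their call in all 15 alternatives, and the counts stayed at 4 higher and 5 lower in each. The lowest values of these 9 came with library totals in place of TMM, which moved the median log2 fold change of all genes from -0.01 to -0.24 and the calls over all genes from 4283 higher and 4349 lower to 2973 higher and 6093 lower. Under that scaling Ccnd2 rose by 2.80, Cdk4 by 0.68, Cdk6 by 1.35 and Cdkn1a by 1.90. Cdkn2d had the highest adjusted p of any called gene in any alternative, 0.0149. Ccnd1 was not called in any of 14 alternatives and changed sign without isograft replicate 2 (0.0916, adjusted p = 0.902, in a range of 0.205 to 0.902), with values of -0.69 to 0.0916 over the left-out libraries. The filter of at least 5 CPM in 3 libraries removed Ccnd1. Sums and shares within the families kept their direction in all 9 alternatives each, but without division by exon length the difference in the Cdk6 share went from 3.99 to 9.97 percentage points, that in D cyclins over Cdkn1b from 4.53 to 9.36 and that in the kinases over INK4 transcripts from 3.06 to 8.21. With the replicate number as a replicate block, 4064 genes rose and 4152 fell, and the only pathway count that moved by over 1.5 times was that of E2F targets that fell, from 2 to 1. Libraries with the same number did not deviate together (correlations of -0.13, 0.03 and -0.07 across genes for numbers 1, 2 and 3). Such correlations over all genes cannot exclude a pairing or batch that affects few genes. Depth limits Ccnd1 most, at 11 to 49 counts per library.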
